A study of Mus musculus with 2 samples.

Results

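Solute carriers are membrane proteins that move ions, metabolites and vitamins into cells and between compartments. The genes examined here were all protein-coding mouse genes whose symbol is Slc followed by a number, without the 9 subfamilies that hold the carriers of nutrient amino acids, glucose, folate and iron (Slc1, Slc2, Slc3, Slc7, Slc11, Slc19, Slc38, Slc40 and Slc43). This gave 314 genes in 40 subfamilies, against 9656 genes of any kind that had a named splice junction in the data. They were sorted into 11 groups by the substrates of their subfamilies. The symbol rule also takes in 3 genes that are not transporters, among them the scaffold gene Slc9a3r1.

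Both libraries were made from total RNA of CD4+ T cells, the helper lymphocytes, of male C57BL/6JJcl mice. The cells were enriched magnetically from the spleens of 4 animals, which were pooled. The stimulated cells were kept for 4 h on plates coated with 2 ug/ml anti-CD3e, which binds part of the T cell receptor complex, and 2 ug/ml anti-CD28, which binds a costimulatory receptor, and the mock cells went through the same handling with no antibody. There was 1 library per condition, so no difference had a replicate check, no p-value was computed, and every statement compares one stimulated with one mock library.

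A resting lymphocyte is small and divides rarely, and receptor signals make it grow before it divides. Growth needs nucleosides, vitamins and metal ions, the export of lactate from glycolysis, and control of cell volume and pH, and carriers serve each of these. In mitochondria the Slc25 family moves phosphate, nucleotides, dicarboxylates and cofactors across the inner membrane.

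The measured quantity was the number of reads that crossed a splice junction, so the sequences below show what such a read had to contain in the genes on which the results turn. For Slc29a1, Slc16a1, Slc6a9, Slc5a6, Slc41a1, Slc12a7 and Slc9a3r1, the 40 bases are coding sequence, 20 from each exon, of an annotated transcript, written 5′ to 3′, with the 8 bases around the joined ends in capitals.
Slc29a1: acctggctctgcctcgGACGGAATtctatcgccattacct
Slc16a1: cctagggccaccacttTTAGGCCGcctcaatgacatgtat
Slc6a9: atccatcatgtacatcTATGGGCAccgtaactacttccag
Slc5a6: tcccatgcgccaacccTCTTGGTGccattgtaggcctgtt
Slc41a1: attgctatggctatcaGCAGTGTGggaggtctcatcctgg
Slc12a7: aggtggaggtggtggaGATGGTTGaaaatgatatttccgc
Slc9a3r1: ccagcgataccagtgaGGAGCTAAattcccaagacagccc
The Slc29a1 junction joins exons 7 and 8 of 13 across the intron at chr17:45726024-45726156 (mm9, minus strand) and held 151 reads in the stimulated library and 13 in the mock library. In Slc16a1, exons 4 and 5 of 5 are joined across chr3:104457511-104459370 on the plus strand, with 68 stimulated and 4 mock reads. The Slc6a9 junction, across chr4:117537703-117537800 on the plus strand, held 53 stimulated reads and no mock read. These 3 junctions were thus read mainly or only in the stimulated library. The Slc41a1 junction (chr1:133738710-133739525, plus strand) held 64 stimulated and 15 mock reads. Across chr5:31340266-31340386 on the minus strand, the Slc5a6 junction held 9 stimulated reads and no mock read. The Slc12a7 junction (chr13:73943886-73946432, plus strand) had the opposite pattern, with no stimulated read and 83 mock reads. The last Slc9a3r1 junction (chr11:115041411-115041628, plus strand) held 21 stimulated and 128 mock reads.

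The nucleoside carrier gene Slc28a2 has a near-identical neighbour, the annotated gene Gm14085, and the same 40 bases of both are shown because they limit what can be said of Slc28a2.
Slc28a2: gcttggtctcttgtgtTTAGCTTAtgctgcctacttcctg
Gm14085: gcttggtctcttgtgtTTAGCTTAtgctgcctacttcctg
The 2 sequences, each from the junction of exons 4 and 5, differ at 0 of 40 bases, so a read confined to these bases fits both genes. The introns lie at chr2:122272717-122273505 and chr2:122319166-122319952 (mm9, plus strand).

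The stimulated library held 1341197 junction reads on 97395 junctions and the mock library 1147232 reads on 97850 junctions, and 96.0% of stimulated and 95.8% of mock reads lay on junctions with a gene name. Values are reads per 1000000 junction reads of a library. All intervals are 95% intervals by the exact Clopper-Pearson method; they allow for counting error alone, and several reads may come from the same molecule. A gene with no read could still have reached 2.24 of these units in the stimulated library or 2.61 in the mock library. Genes with 20 or more reads in both libraries together are called measured, and such a gene is called higher or lower where its value differed by at least 2-fold with an interval that excluded 1. All 6 T cell markers were read, with 3687 stimulated and 3424 mock reads in sum, and Cd4 itself was lower (285 stimulated and 650 mock reads). Markers of each other cell type had fewer reads in sum than the T cell markers. The 7 erythroid markers held 203 stimulated and 164 mock reads, most of them from Hba-a1. The 6 B cell markers held 150 stimulated and 183 mock reads. The 6 myeloid markers held 40 stimulated and 49 mock reads, with Cybb higher (19 stimulated and 5 mock reads) and Lyz2 at 0 stimulated and 15 mock reads. Klrd1, the one natural killer marker with a named junction, was lower (20 stimulated and 38 mock reads), and so was the CD8 marker Cd8b1 (5 stimulated and 16 mock reads), while Cd8a could not be named. The 3 dendritic cell markers held 2 stimulated and 9 mock reads. The part of these cells in the carrier values was not tested. Because these are pools of cells, fewer cells of a type and less RNA per cell cannot be told apart.

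Of the 314 carrier genes, 180 had no named junction, 38 had one but fewer than 20 reads, and 96 were measured. In the stimulated library 20 of the 96 (20.8%) were higher, against 17.0% of all 7208 measured genes, and 24 (25%) were lower, against 25.1% of all genes. The carriers as a whole therefore lay close to the background. Their median log2 ratio was -0.12, against -0.21 for all genes, and their interquartile range ran from -1.04 to 0.74. Under scaling by the trimmed mean of M values (TMM) the point of no change moved to a log2 ratio of -0.24, 24 carriers were higher and 21 lower, and the background was 21.6% higher and 19.6% lower. The medians then were 0.12 for the carriers and 0.03 for all genes. The carriers had fewer reads than most genes, with a median of 68.5 per gene against 140, and held 0.550% of stimulated and 0.581% of mock reads. Among the solute carriers of the 9 subfamilies left out, 11 of 21 measured genes were higher and 4 lower. The near-balance of the carriers studied here held large differences in opposite directions, which the plot of ratios by substrate group shows.

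**Figure D1:**
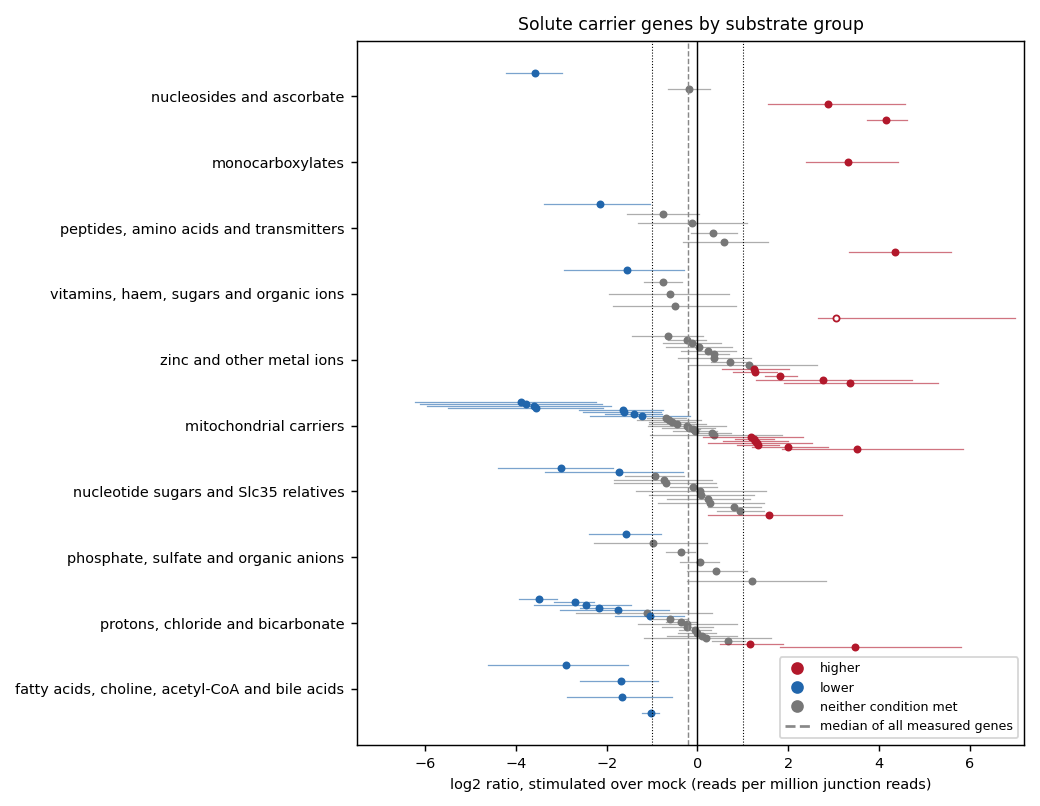
Log2 ratio of junction reads, scaled to library totals, stimulated over mock (horizontal axis), of the 96 measured carrier genes by substrate group (vertical axis); bars are exact 95% intervals for counting error, dotted lines mark 2-fold, the dashed line is the median of all measured genes, and the open circle is Slc5a6, set against 3 reads. Fatty acid and choline carriers lie on the lower side, 5 zinc and metal carriers are called higher and 0 lower, and mitochondrial carriers spread over both.

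Carriers of nucleosides split widely. Slc29a1 encodes ENT1, the equilibrative carrier through which nucleosides cross the plasma membrane, and had 957 reads in the stimulated library, against 46 in the mock library. It was 17.8-fold higher (13.2 to 24.5). All 17 of its junctions, between chr17:45722732 and chr17:45732743, had the higher value in the stimulated library, and 8 had no mock read. From its most-read junction alone its log2 ratio was 3.31 in place of 4.15. Slc29a3, the lysosomal nucleoside carrier ENT3, was 7.36-fold higher (2.92 to 23.8), with 43 stimulated and 5 mock reads. Their relative Slc29a2 had 14 stimulated and 2 mock reads, below the minimum. Slc23a2, which brings in vitamin C, met neither condition with 80 stimulated and 78 mock reads.

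Slc28a2, the sodium-driven purine nucleoside carrier CNT2, was the one lower gene of this group. It had 26 stimulated and 264 mock reads and was 11.9-fold lower (7.92 to 18.5), with all 17 junctions (chr2:122266743-122286155) higher in the mock library. Its neighbour Gm14085, named on 17 junctions at chr2:122311827-122353067, had 22 stimulated and 653 mock reads and was 34.7-fold lower (22.7 to 55.8). A further 13 junctions joined an exon of Slc28a2 to an exon of Gm14085 and held 7 stimulated and 99 mock reads (16.5-fold lower, 7.73 to 42.2). Both genes and the junctions between them were thus lower in the stimulated library, but how the mock reads divide between the genes is uncertain. The median of the 4 measured genes of the group, 1.35 on the log2 scale, lies between genes of opposite direction and was -0.77 from the most-read junctions alone.

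**Figure D2:**
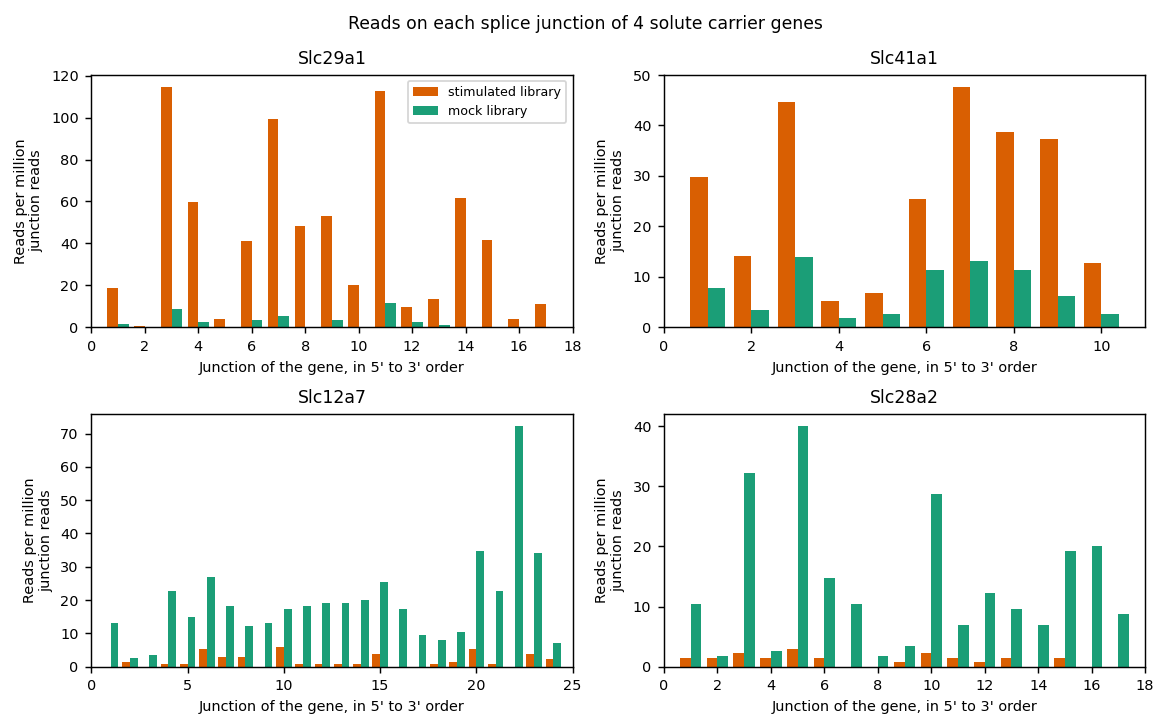
Reads per 1000000 junction reads (vertical axes, each on its own scale) on every named junction of 4 genes in 5′ to 3′ order (horizontal axes), with the stimulated library in orange and the mock library in green. The stimulated bar is the taller on all junctions of Slc29a1 and Slc41a1, and the mock bar on all junctions of Slc12a7 and Slc28a2.

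Slc16a1, which encodes the proton-coupled lactate and pyruvate carrier MCT1, was higher. It had 117 stimulated and 10 mock reads, a log2 ratio of 3.32 (5.25- to 21.4-fold), spread over 4 junctions (chr3:104442752-104459370) that were all higher in the stimulated library. It was the one measured gene of 14 monocarboxylate carriers. Slc16a10, an aromatic amino acid carrier of the same family, had 11 stimulated reads, none in the mock library, and was below the minimum. MCT1 reaches the membrane with the help of basigin or embigin. Their genes did not follow Slc16a1: Bsg met neither condition with 354 stimulated and 213 mock reads (1.42-fold), and Emb was lower with 124 stimulated and 590 mock reads (5.56-fold). Slc16a3, which encodes the lactate exporter MCT4, had no named junction and was not measured.

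Carriers of amino acids, peptides and transmitters outside the left-out subfamilies included the gene with the highest ratio of all. Slc6a9, the sodium- and chloride-driven glycine carrier GlyT1, had 190 stimulated and 8 mock reads and was 20.3-fold higher (10.1 to 47.7). Its 13 junctions (chr4:117508083-117540652) were all higher in the stimulated library and 9 had no mock read. Counting just the junctions that both libraries held, its log2 ratio was 3.11 in place of 4.34. Slc36a1, which lets small amino acids out of lysosomes, was lower with 9 stimulated and 34 mock reads (4.42-fold, 2.07 to 10.5). It lost the call when junctions of a single library were left out. Slc6a6, the taurine carrier, met neither condition with 85 stimulated and 57 mock reads. The lysosomal peptide and histidine carrier gene Slc15a4, at 30 stimulated and 17 mock reads, and the peptide carrier gene Slc15a2, at 25 stimulated and 36 mock reads, met neither condition as well.

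Among carriers of vitamins, haem, sugars and organic ions, Slc5a6 stood out. It encodes the sodium-dependent carrier of biotin and pantothenate and had 29 reads in the stimulated library and none in the mock library. Set against 3 mock reads it was 8.27-fold higher, and the lower limit of its interval was 6.31. The 29 reads lay on 6 junctions, the most on 1 junction being 10. Without that junction Slc5a6 fell under the 20-read minimum and lost the call. Slc48a1, which moves haem out of lysosomes, was lower with 8 stimulated and 20 mock reads (2.92-fold, 1.23 to 7.67), a call lost with intervals widened to the spread between junctions. Slc50a1, a sugar carrier, met neither condition with 83 stimulated and 120 mock reads, and the riboflavin carrier gene Slc52a2, at 16 stimulated and 3 mock reads, was below the minimum. The group holds the large Slc22 family of organic ion carriers of liver and kidney, and 11 of its 53 genes had a named junction.

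The carriers of zinc and other metals that met the conditions were all higher. Of 29 genes 14 were measured, 5 were higher and none was lower, with a median log2 ratio of 0.54. Over all measured genes 17.0% were higher and 25.1% lower. Slc39a14, or ZIP14, which imports zinc and iron, had 48 stimulated and 4 mock reads and was 10.3-fold higher (3.76 to 39.2). Slc39a6, the importer ZIP6, was 2.38-fold higher (1.46 to 4.02). Slc30a4, which loads zinc into vesicles, had 32 stimulated and 4 mock reads (6.84-fold higher, 2.43 to 26.6). Slc30a5, which supplies zinc to the secretory pathway, had 140 stimulated and 50 mock reads and was 2.40-fold higher (1.72 to 3.38) on all 15 junctions. Importers and carriers that remove zinc from the cytosol were thus both among the higher genes. Slc39a14 and Slc30a5 lost the call when junctions of a single library were left out, and Slc30a4 lost it without its most-read junction. The other measured genes ranged in log2 ratio up to 1.14 for Slc39a11 (18 stimulated and 7 mock reads, interval 0.877 to 6.23) and down to -0.65 for the importer gene Slc39a10 (26 stimulated and 35 mock reads). Slc39a7, which releases zinc from the endoplasmic reticulum, met neither condition with 184 stimulated and 123 mock reads.

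Slc41a1, a magnesium carrier, had the most reads of the metal group. Its 352 stimulated and 85 mock reads gave a 3.54-fold higher value (2.79 to 4.54), and all 10 junctions (chr1:133724971-133743126) were seen in both libraries and higher in the stimulated one. Mtf1, the zinc-sensing factor that switches on metallothionein genes, was higher as well (73 stimulated and 29 mock reads, 2.15-fold, 1.38 to 3.43). Its target Mt1 met neither condition with 20 stimulated and 25 mock reads, and Mt2 was below the minimum with 8 stimulated and 11 mock reads. The zinc exporter gene Slc30a1, another target of Mtf1, had no named junction.

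Mitochondrial carriers split almost evenly. Of 47 Slc25 genes 25 were measured, 7 were higher, 8 lower and 10 neither, with a median log2 ratio of -0.23, which was 0.01 under TMM scaling. Among all measured genes 17.0% were higher and 25.1% lower. The phosphate carrier gene Slc25a3, the most read of all carriers here, met neither condition, with 719 stimulated and 657 mock reads (0.936-fold, 0.841 to 1.04). Nor did the ADP/ATP carrier gene Slc25a4, with 62 stimulated and 78 mock reads. Of 8 genes of mitochondrial transport without the Slc prefix, 6 were measured and none was higher or lower. Among them were the outer membrane pore genes Vdac1 and Vdac2 and the uncoupling protein gene Ucp2 (824 stimulated and 596 mock reads).

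The higher mitochondrial carriers included those of nucleotides, cofactors and fuels. Slc25a33, which brings pyrimidine nucleotides into mitochondria, had 40 stimulated and 3 mock reads and was 11.4-fold higher (3.63 to 57.6). Slc25a22, a glutamate carrier, was 4.01-fold higher (2.32 to 7.37) with 75 stimulated and 16 mock reads. Slc25a20, which exchanges acylcarnitine for carnitine in fatty acid oxidation, was 2.52-fold higher (1.84 to 3.50) on all 7 junctions. Slc25a39, required for glutathione import, had 181 stimulated and 65 mock reads (2.38-fold, 1.78 to 3.21). Slc25a32, a carrier of folate and flavin cofactor, was 2.39-fold higher (1.48 to 3.98). The remaining members, Slc25a51 for NAD and the iron carrier gene Slc25a37, or mitoferrin 1, had 29 stimulated reads each, with 11 mock reads for Slc25a51 and 10 for Slc25a37, and lost the call when intervals were widened to the spread between junctions. Slc25a37 is abundant in red cell precursors. The 7 erythroid markers held 203 stimulated and 164 mock reads, most of them from Hba-a1 (175 stimulated and 155 mock reads), and Hbb-b1, Epb42 and Klf1 had no named junction and were not measured. The red cell anion exchanger gene Slc4a1, itself one of the carriers, had 11 stimulated and 2 mock reads. The part of red cell RNA in the Slc25a37 value was not tested.

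The lower mitochondrial carriers had few stimulated reads. Slc25a23, a calcium-regulated carrier of ATP-magnesium and phosphate, had 3 stimulated and 38 mock reads and was 14.8-fold lower (4.70 to 75). Its relative Slc25a24 had no read in the stimulated library and 13 in the mock library, and was below the minimum. Slc25a27, or UCP4, had 4 stimulated and 40 mock reads (11.7-fold lower, 4.23 to 45.0). Slc25a45 had 3 stimulated and 35 mock reads, and Slc25a40, the close relative of Slc25a39, had 3 stimulated and 31 mock reads. In these 4 lower genes the stimulated library held 4 reads or fewer. For Slc25a40 the 1 junction seen in both libraries held 2 stimulated and 1 mock reads, too few for a value of its own. The dicarboxylate carrier gene Slc25a10 had 17 stimulated and 45 mock reads (3.09-fold lower, 1.74 to 5.77). Slc25a11, the oxoglutarate and malate exchanger, had 33 stimulated and 74 mock reads and was 2.62-fold lower (1.72 to 4.08) on all 8 junctions. Slc25a30 was 3.12-fold lower, and Slc25a28, the second mitoferrin gene, was 2.34-fold lower (12 stimulated and 24 mock reads), a call lost under TMM scaling.

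Carriers of protons, chloride and bicarbonate, which set cell volume and pH, were higher in 2 and lower in 6 of 18 measured genes, the scaffold gene Slc9a3r1 among the 6. Among all genes, too, lower calls (25.1%) outnumbered higher ones (17.0%). The median log2 ratio of the group was -0.29, near that of all genes, and -0.05 under TMM scaling. Slc12a7 encodes KCC4, which lets potassium and chloride out of cells together. Slc12a7 had 55 stimulated and 531 mock reads and was 11.3-fold lower (8.54 to 15.2), on all 24 junctions (chr13:73870786-73950986). Its most-read junction alone gave a log2 ratio of -5.02 in place of -3.50, set against 3 stimulated reads because it had none. Another exporter gene, Slc12a4 or KCC1, met neither condition with 56 reads in each library. Slc12a2, or NKCC1, which brings sodium, potassium and chloride in, was 2.24-fold higher (1.40 to 3.66), with 68 stimulated and 26 mock reads, a call lost without its most-read junction. The orphan member Slc12a9 was lower with 9 stimulated and 26 mock reads. The 3 junctions of Slc12a9 seen in both libraries held 7 stimulated and 5 mock reads, under the minimum, and the difference lay in junctions with mock reads alone.

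The kinases that control these cotransporters and subunits of the sodium pump were set beside them. Oxsr1, which phosphorylates both kinds of Slc12 carrier, was 2.19-fold higher (1.64 to 2.94), the upstream kinase gene Wnk1 met neither condition at 1.82-fold (1.67 to 1.99), and Stk39 had 50 reads in each library. In the sodium pump, the subunit gene Atp1b1 was lower with 33 stimulated and 128 mock reads, Atp1b3 with 57 stimulated and 160 mock reads, and so was the regulator gene Fxyd5 (1809 stimulated and 3585 mock reads).

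Slc9a3r1 encodes NHERF1, a scaffold that ties membrane proteins to the actin skeleton and is named for a sodium-proton exchanger it binds. It had 54 stimulated and 302 mock reads and was 6.54-fold lower (4.88 to 8.90), on all 5 junctions. Among true exchangers, Slc9b2 was higher, with 39 stimulated and 3 mock reads on 11 junctions. Slc9a8, an exchanger of the Golgi, met neither condition, with 180 stimulated and 96 mock reads (1.60-fold). Slc26a11, a sulfate and chloride carrier, was 5.49-fold lower (2.74 to 12.2) with 10 stimulated and 47 mock reads. The bicarbonate carrier gene Slc4a2 met neither condition with 141 stimulated and 155 mock reads, nor did Slc4a7 with 145 stimulated and 129 mock reads.

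Carriers of fatty acids, choline, acetyl-CoA and bile acids were lower in all 4 measured genes of 21, with a median log2 ratio of -1.68. The share of lower calls over all measured genes was 25.1%, and 4 genes are few. Slc44a2, a choline carrier-like protein, had 341 stimulated and 597 mock reads and was 2.05-fold lower (1.79 to 2.34), just past 2-fold, and it lost the call under TMM scaling. Slc44a1, the choline carrier CTL1, had 5 stimulated and 32 mock reads and was 7.48-fold lower (2.89 to 24.6). Slc27a4, the fatty acid transport protein FATP4, was 3.23-fold lower (1.82 to 6.00) with 17 stimulated and 47 mock reads. The orphan member Slc10a7 was 3.16-fold lower (1.48 to 7.31) with 10 stimulated and 27 mock reads. Slc44a1 and Slc10a7 lost the call when junctions of a single library were left out.

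Most carriers that feed the Golgi with activated sugars met neither condition, in 10 of 13 measured Slc35 genes of 27, with a median log2 ratio of 0.06. Most measured genes of any kind, 4170 of 7208, met neither condition as well. Slc35d2, a carrier of UDP-sugars, was the lowest, with 7 stimulated and 48 mock reads (8.02-fold lower, 3.61 to 21), and Slc35b4 was 3.31-fold lower with 6 stimulated and 17 mock reads. Slc35f2, a more distant relative, was 2.99-fold higher (1.17 to 9.07) with 21 stimulated and 6 mock reads. The calls of Slc35d2, Slc35b4 and Slc35f2 were lost when junctions of a single library were left out. Those of Slc35b4 and Slc35f2 were also lost with widened intervals. Slc35e1, the most read, was just under 2-fold at 1.91-fold (1.34 to 2.76), with 105 stimulated and 47 mock reads, and on the other side Slc35b3, a carrier of the sulfate donor PAPS, was 1.93-fold lower (1.24 to 3.04). Enzymes that make the nucleotide sugars went both ways, with 3 of 11 measured genes higher (Uap1, Uxs1 and Gmppb) and 3 lower (Cmas, Ugdh and Papss1). The shares over all measured genes were 17.0% higher and 25.1% lower. Uxs1, which makes UDP-xylose, was 8.98-fold higher (2.20 to 79.0), while Ugdh, which makes its precursor, was 6.34-fold lower with 26 stimulated and 141 mock reads.

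Among 6 measured carriers of phosphate, sulfate and organic anions 1 was lower and none was higher. Of all measured genes 25.1% were lower and 17.0% higher. Slc17a9, which loads ATP into vesicles, had 20 stimulated and 51 mock reads and was 2.98-fold lower (1.75 to 5.28). It lost the call when junctions of a single library were left out. The phosphate importer gene Slc20a1, the most read of the group, met neither condition with 163 stimulated and 180 mock reads, and its relative Slc20a2 had a ratio of 2.28 with an interval that included 1 (0.848 to 7.12). The glucose 6-phosphate carrier gene Slc37a4 had 2 stimulated and 9 mock reads, below the minimum. Of 9 sodium-calcium exchangers only Slc8b1, the mitochondrial one, had a named junction, with 2 stimulated and 6 mock reads.

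**Figure D3:**
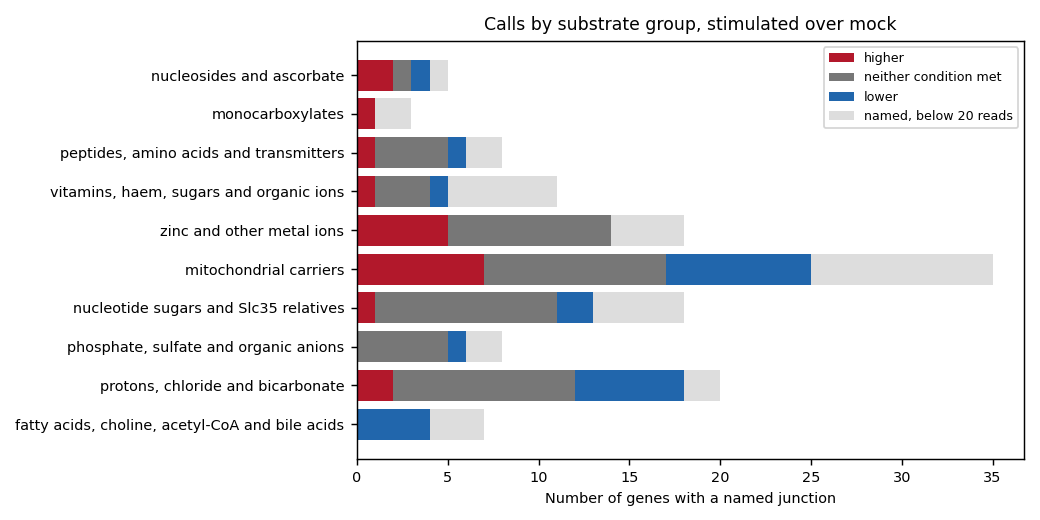
Number of genes with a named junction (horizontal axis) in each substrate group, by call; the group of sodium-calcium exchangers, with 1 named gene and none measured, is not drawn. The metal group has 5 higher and 0 lower genes and the fatty acid and choline group 0 higher and 4 lower.

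Which exons were joined could be compared at few splice sites. A splice site shared by several junctions needed 20 reads in each library, and 3 sites in Slc25a3 and Slc9a8 had them. None differed by 20 percentage points with intervals apart. At the Slc25a3 acceptor at chr10:90582452, the less used junction took 5 of 73 stimulated reads (6.85%, 2.26 to 15.3) and 0 of 93 mock reads (0%, up to 3.89). With a minimum of 10 reads in each library there were 10 sites, and again none differed by this rule. Among them was the Slc20a1 donor at chr2:129029892. Its junction ending at 129029981 took 1 of 10 stimulated reads (10%, 0.253 to 44.5) and 6 of 11 mock reads (54.5%, 23.4 to 83.3), with intervals that overlapped. In Slc29a1 several donors are joined to the acceptor at chr17:45729211. The donor at chr17:45732430 gave 154 of 235 stimulated reads (65.5%, 59.1 to 71.6) and 10 of 13 mock reads (76.9%, 46.2 to 95). The donor at chr17:45730280 gave 80 stimulated reads (34.0%, 28.0 to 40.5) and 3 mock reads (23.1%, 5.04 to 53.8). A further junction, chr17:45730382-45732430, with 25 stimulated and 2 mock reads, joins the donor at 45732430 to the acceptor just upstream of the donor at 45730280, so an exon between them was in part included and in part skipped. The intervals overlapped, and 13 mock reads were below the minimum, so a change in the use of these donors was not detectable at this depth.

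Many growth-related factors of the basic helix-loop-helix class, Myc among them, bind the palindrome CACGTG, which reads the same on both strands. Promoter windows of 300 bases, 250 before and 50 after a gene's start, were searched for it in RefSeq (GRCm38.p6). It was present in 4 of 14 higher carriers in the table (28.6%), 3 of 17 lower ones (17.6%) and 4 of 41 that met neither condition (9.76%). The shares were 14.8% of all carriers in the table (36 of 244) and 8.09% of all its genes (2187 of 27025). The higher genes were Slc16a1, Slc25a33, Slc29a1 and Slc30a5, and the lower ones Slc12a7, Slc12a9 and Slc36a1. A match describes the letters only, and these counts are small. The 250 bases before the start of 3 of them, of both directions, are shown 5′ to 3′ with the match in capitals, which begins 200 bases before the start in Slc16a1 (chr3:104638414-104638663, plus strand), 8 in Slc25a33 (chr4:149774268-149774517, minus strand) and 38 in Slc12a7 (chr13:73763447-73763696, plus strand), all in GRCm38.p6.
Slc16a1 promoter: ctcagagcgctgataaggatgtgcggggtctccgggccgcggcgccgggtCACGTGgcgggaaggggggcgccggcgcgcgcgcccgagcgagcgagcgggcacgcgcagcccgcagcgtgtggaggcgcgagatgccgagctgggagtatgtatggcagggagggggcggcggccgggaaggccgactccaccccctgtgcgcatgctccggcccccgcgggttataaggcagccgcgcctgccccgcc
Slc25a33 promoter: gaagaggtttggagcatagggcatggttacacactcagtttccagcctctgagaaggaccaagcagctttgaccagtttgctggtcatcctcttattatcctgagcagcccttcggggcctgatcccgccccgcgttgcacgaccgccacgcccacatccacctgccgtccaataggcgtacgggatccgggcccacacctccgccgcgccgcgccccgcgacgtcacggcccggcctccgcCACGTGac
Slc12a7 promoter: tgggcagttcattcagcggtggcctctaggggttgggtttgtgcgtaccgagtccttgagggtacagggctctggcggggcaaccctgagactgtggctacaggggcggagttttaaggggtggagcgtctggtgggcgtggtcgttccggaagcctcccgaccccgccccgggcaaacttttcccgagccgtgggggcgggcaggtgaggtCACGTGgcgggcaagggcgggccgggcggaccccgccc

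**Figure D4:**
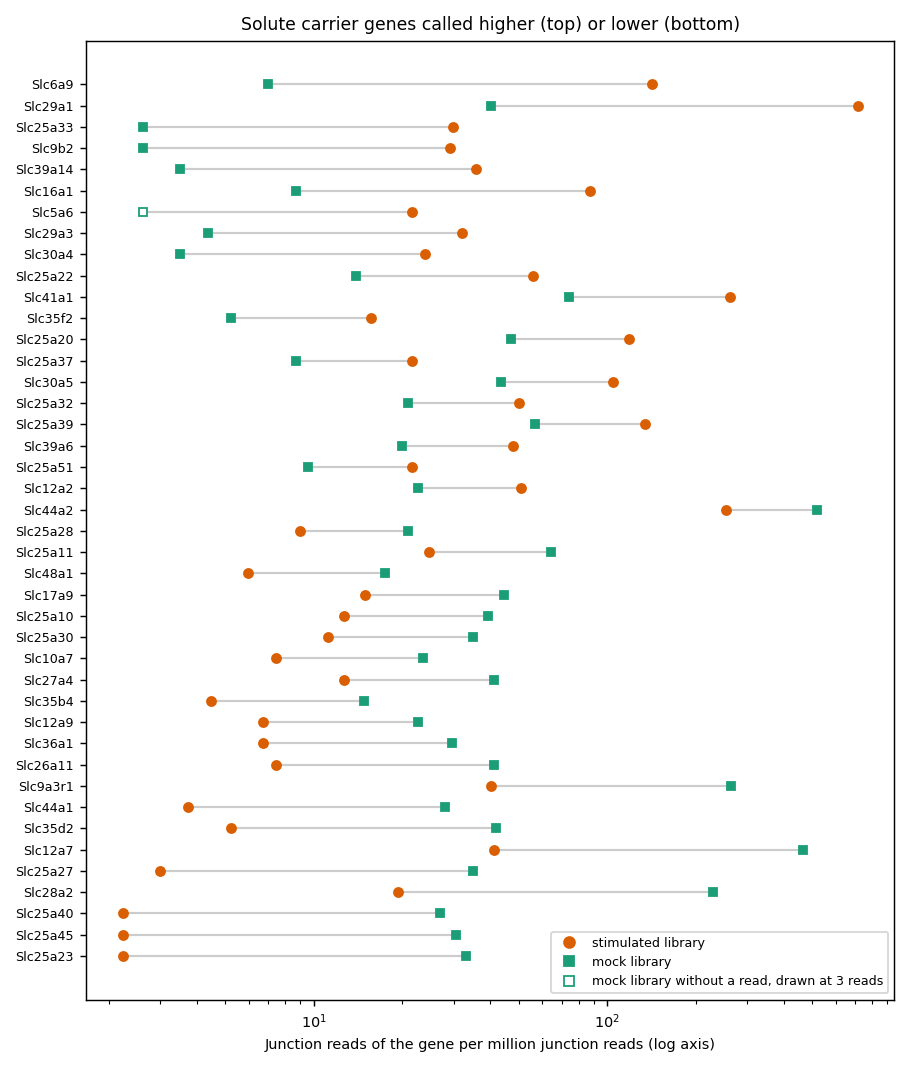
Junction reads per 1000000 junction reads of the library (horizontal log axis) of the 20 higher (top) and 22 of the 24 lower (bottom) carrier genes, with the stimulated library as orange circles and the mock library as green squares. The open square is Slc5a6, drawn at 3 reads because its mock library had none; the distance between the points of a row is its fold difference, and levels of different genes are not comparable because genes differ in their number of junctions.

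Of the 44 called genes, 13 kept their call under all 8 alternatives run on each gene. The 7 higher ones were Slc29a1, Slc6a9, Slc16a1, Slc41a1, Slc25a20, Slc25a39 and Slc39a6, and the 6 lower ones included Slc28a2, Slc12a7, Slc9a3r1, Slc25a27 and Slc25a11. Slc28a2 remains uncertain for its near-identical neighbour. The other 31 lost the call in at least one setting, all of them when a single junction stood for the gene.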

How the data were processed

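The authors deposited, per library, a list of splice junctions with read counts in its score column. These counts were used as deposited. The submitters' processing notes name TopHat, Cufflinks and the build mm9, with versions and filters not given in the sources used here. Any junction missed by the aligner in one library lowers that gene's value, and reads that lie within an exon do not enter it. Mean inserts were 199.014 bp (stimulated) and 211.79 bp (mock), per the labels.

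The annotation was GENCODE release M21 on GRCm38, and no coordinate was converted; only 1.98% of junctions equalled a GRCm38 intron. A junction took a gene's name where its chromosome, strand and intron length matched an annotated intron and its distance to at least 1 other such junction matched a transcript of that gene. Of 124183 junctions, 95448 (76.9%) were named, 173 fitting more than 1 gene and 36 shifted by over 1000 bp from their neighbours were left out. In 20 rotations of chromosomes as decoys, 6.4 junctions were named on average. Genes with under 2 introns cannot be named (6 of the 180 carriers without a value; for the others the cause was not tested). Transcripts read through from a neighbouring gene were not used.

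Counts of all named junctions of a gene were added and divided by the library's junction reads (per 1000000). Python 3.11.15, numpy 2.4.6, pandas 2.3.3, scipy 1.17.1 and matplotlib 3.10.9 were used, and the naming and the calls were tested on simulated data. Carriers, substrate groups and partner lists were chosen with earlier results of these data known. The text names carriers called higher or lower, those with the most reads or the extreme ratios of a group, those next to the 2-fold limit, those with 10 or more reads in one library and none in the other, a few for exon choice, and the partner genes. Others that met neither condition or had under 20 reads, such as Slc23a2, Slc29a2, Slc39a7 and Slc12a4, were chosen after their values were seen. A few results are not reported here. Splice sequences are from the GENCODE transcripts and promoters from RefSeq (GRCm38.p6), which held 244 of the 314 carriers.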

Additional observations from a re-analysis of the deposited data

Results flagged for a closer look

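At splice sites of Slc41a1, the magnesium carrier, 8 junctions without a gene name held 17 stimulated and 3 mock reads, and the ratio of 4.85 (1.40 to 25.8) was higher in the stimulated library. These reads enter no value of the report. They lie beside 352 stimulated and 85 mock reads on the named junctions of the gene. Over all carriers, 73 genes had such unnamed junctions, 181 in number, with 136 stimulated and 242 mock reads in sum. Slc28a2, whose neighbour is near-identical, held 9 stimulated and 136 mock reads of these, and without it the sum was 127 stimulated and 106 mock reads.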

How the results depend on the processing

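Scaling by the median of ratios or by the trimmed mean of M values kept 41 of 44 calls; Slc44a2 and Slc25a28 were among the 3 lost, and Slc35c2, Slc35e1 and Slc39a11 were gained under both, with Slc20a2 under the trimmed mean. The medians of the mitochondrial group (-0.23) and of the phosphate group (-0.16) were then 0.01 and 0.08 under the trimmed mean. Scaling without the 20 most-read genes kept all 44, and naming with at least 2 other junctions kept all 42 that had a value. Intervals widened to the spread between junctions of a gene, 2.02 times the counting variance over 4920 genes, kept 37.

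The 20 higher genes became 8 with the most-read junction alone, 12 with a minimum of 50 reads and 10 with a fold of 4. The 24 lower genes became 11 with the most-read junction alone, 15 with only junctions seen in both libraries, 13 with a minimum of 50 reads and 12 with a fold of 4. The fold of 4 is a stricter threshold, and the others leave fewer reads or fewer genes by construction. From the most-read junction alone the median was -0.77 for nucleoside carriers and -1.48 for proton, chloride and bicarbonate carriers. With only junctions seen in both libraries the log2 ratios turned to 0.77 for Slc25a40, on 2 stimulated and 1 mock reads, and 0.26 for Slc12a9, on 7 stimulated and 5 mock reads. Both are under the 20-read minimum, and the setting removes the junctions without a stimulated read, so these values say nothing of direction. Without the 3 genes that are not transporters, an alternative chosen after seeing the data, 20 were higher and 23 lower. No paired analysis was possible because there is 1 library per group. Depth limits the 38 carriers with fewer than 20 reads, for which no call was made.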
